A study of Homo sapiens with 6 samples.

Results

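The 9 genes of MHC class I antigen presentation described here were measured in a breast cancer cell line depleted of the RNA-binding protein Sam68. They were chosen by symbol: HLA-B, HLA-C, HLA-E, HLA-F, B2M, TAP1, TAP2, TAPBP and NLRC5. Each of the 9 genes had 1 row in the deposited table of 74852 loci, and all 9 rows were among the 18849 loci tested, which had a mean of at least 10 normalized reads over the 6 libraries. Of the rows, 2 joined a member with a neighbour, HLA-B with the microRNA gene MIR6891 and TAP2 with the class II gene HLA-DOB, so that the values of these 2 loci cannot be assigned to the member alone.

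MDA-MB-231, an established human line of triple-negative breast cancer, received either non-targeting siRNAs (si-CTRL) or 4 pooled siRNAs directed at SAM68 (si-SAM68), with 3 libraries in each group, both with Lipofectamine RNAiMAX and without any other agent. The sample labels give 2 rounds of transfection and collection 24 h after the last, whereas the methods of the study give 48 h. No interferon treatment, immune cell or untransfected control is named in the labels. The methods of the study speak of a harvest in triplicate, but neither they nor the labels say that the 3 libraries of a group came from separate transfections, and the p-values then measure only the spread between these libraries, which may be technical.

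Nearly all nucleated cells display peptides from their own proteins on MHC class I molecules, which CD8 T cells inspect. Peptides made by the proteasome are pumped into the endoplasmic reticulum by the TAP1-TAP2 transporter, and are loaded onto a heavy chain paired with β2-microglobulin (B2M) with the help of tapasin (TAPBP). The genes share promoter elements on which NLRC5, the class I transactivator, acts together with interferon and NF-κB pathways.

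The siRNAs are shown because they define the comparison. Each complete sequence, in the sense direction, occurred in transcripts of KHDRBS1, the gene encoding Sam68, and in none of the 102 transcripts that GENCODE release 29 lists for the members.
siSAM68_1: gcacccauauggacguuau
siSAM68_2: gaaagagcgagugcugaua
siSAM68_3: uaugauggaugauaucugu
siSAM68_4: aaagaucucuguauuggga

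KHDRBS1 itself was at 15660, 14483 and 14737 normalized reads in the si-CTRL libraries and at 583, 602 and 670 in the si-SAM68 libraries. The silenced group thus held 4.13% of the control mean, with a log2 difference of -4.60 (SE 0.083, adjusted p = 2.13e-09). Reads on all loci were between 52625492 and 82568487 per library. In si-SAM68 replicate 2 a ribosomal RNA locus took 15.1% of the reads, against 1.83% to 3.17% in the other 5 libraries. VIM, CD44, KRT8 and KRT18, which this line is known to express, summed to between 238003 and 282021 normalized reads, and the epithelial and hormone receptor genes CDH1, EPCAM, ESR1 and PGR together to no more than 23.0. Leukocyte markers summed to between 8.7 and 19.4, leaving out CD68, whose row is joined with another gene. Endothelial markers summed to between 49.4 and 76.2 in si-CTRL and between 31.3 and 35.7 in si-SAM68, and fibroblast markers, mostly COL1A1, to between 138880 and 182163. The other fibroblast markers were far lower, with means over the 6 libraries of 694 for PDGFRB, 1.40 for DCN and 0.74 for LUM. The part of all these marker genes in the results was not tested.

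All 9 members were expressed in every library of both groups, and none of the 9 passed the test (limma, adjusted p under 0.05). Of all loci tested 10.7% passed it, 4.47% higher and 6.23% lower in si-SAM68. At the thresholds of the study, an unadjusted p of at most 0.05 with a fold change of at least 1.5, the count was again 0 of 9, beside 7.67% of all loci. At an unadjusted p under 0.05 alone, 1 member was found, the TAP2 locus, against 27% of all loci. Of the other tools, edgeR called 0 members and DESeq2 called 1, again the TAP2 locus, while they called 10.7% and 14.8% of all loci. The members' median log2 difference was -0.04, with 3 members higher and 6 lower, and the median of all loci tested was 0.01. With 1 library left out the members' median ran from -0.11 (without si-CTRL replicate 3) to 0.02 (without si-SAM68 replicate 3).

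**Figure D1:**
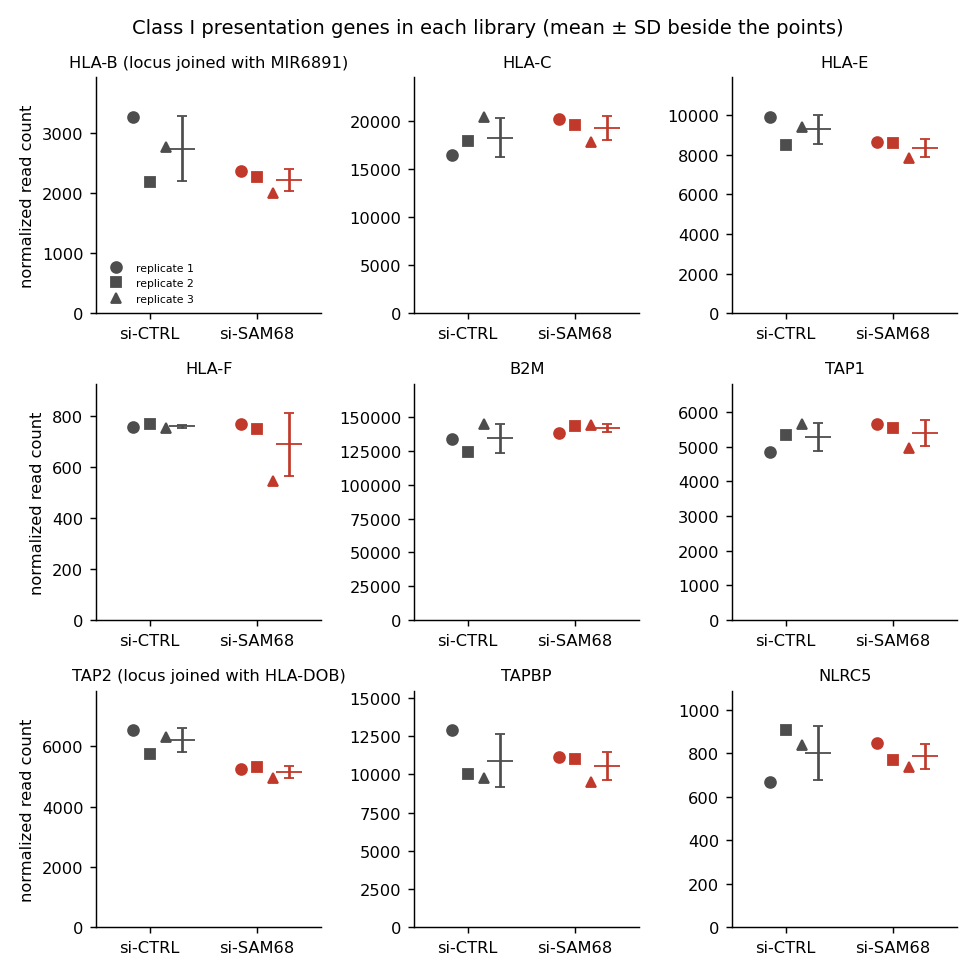
Normalized read counts (vertical axis, from 0) of the 9 members in the 3 si-CTRL and the 3 si-SAM68 libraries, with 1 point per library, the replicate number as its shape, and the mean ± SD of 3 libraries beside the points. The groups overlap in 8 of the 9 panels, and only at the TAP2 locus does every si-SAM68 library (4937 to 5314) lie below every si-CTRL library (5759 to 6534).

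Among the classical heavy chains of the members, which present peptides to CD8 T cells, HLA-C had more reads on its labelled locus. HLA-C (hg19 chr6:31236526-31239913) was at 16459, 17877 and 20436 normalized reads in si-CTRL and at 20248, 19578 and 17837 in si-SAM68. The groups overlapped along most of their range, with the lowest and the highest value both in si-CTRL. The log2 difference was 0.08 (SE 0.094, 95% interval -0.13 to 0.29, adjusted p = 0.636). HLA-B (hg19 chr6:31321644-31325022) was at 3265, 2176 and 2767 in si-CTRL and at 2368, 2269 and 2006 in si-SAM68. Controls 1 and 3 lay above every silenced library, and control 2 lay between them. The log2 difference of -0.29 (SE 0.137, 95% interval -0.60 to 0.02) did not pass the test (unadjusted p = 0.0621, adjusted p = 0.210). Without si-CTRL replicate 2 it was -0.44 and passed (adjusted p = 0.0433), and without si-CTRL replicate 1 it was -0.15 (adjusted p = 0.378), so that the estimate for HLA-B rests on which control library is kept. In bulk RNA, fewer cells expressing a gene and less RNA per cell cannot be told apart.

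HLA-C and HLA-B are paralogs, and their ratio within a library is free of the scaling between libraries. HLA-C had 5.04, 8.21 and 7.38 times the normalized reads of HLA-B in si-CTRL, and 8.55, 8.63 and 8.89 times in si-SAM68. The groups did not overlap, but control 2 was close to the silenced libraries and control 1 far from them. The ratio takes only reads placed on the 2 labelled loci and leaves out those on the haplotype loci described below. How reads were divided between these loci was not tested, so the ratio is not a measure of the expression of the 2 genes alone. It was computed with these values known and was not tested.

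The nonclassical heavy chains, HLA-E, which is recognised by the NKG2A and NKG2C receptors of natural killer cells, and HLA-F, a ligand of other natural killer receptors, also failed the test. HLA-E (hg19 chr6:30457183-30461981) was at 9916, 8513 and 9391 in si-CTRL and at 8660, 8573 and 7833 in si-SAM68. Its highest values were both in control libraries, and control 2 fell within the silenced range. The log2 difference was -0.15 (SE 0.083, 95% interval -0.33 to 0.04, adjusted p = 0.280). HLA-F (hg19 chr6:29691117-29708131) was at 754, 765 and 753 in si-CTRL and at 769, 748 and 544 in si-SAM68. Only si-SAM68 replicate 3 stood apart, and without it the log2 difference moved from -0.16 (95% interval -0.46 to 0.14) to 0.00. The antisense gene HLA-F-AS1 overlaps this locus with a mean of 202 normalized reads, and whether reads were counted by strand is not given in the sources used here.

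B2M, the invariant light chain of every class I molecule, was the most abundant member. It was at 133631, 123846 and 145206 normalized reads in si-CTRL and at 138325, 143278 and 144129 in si-SAM68 (hg19 chr15:45003685-45010357). All silenced values lay inside the control range. The log2 difference was 0.08 (SE 0.084, 95% interval -0.10 to 0.27, adjusted p = 0.566). A locus without a symbol overlaps that of B2M with a mean of 130 normalized reads.

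The subunits of the peptide transporter are encoded close together in the class II region of chromosome 6. TAP1 (hg19 chr6:32812987-32821784) was at 4843, 5332 and 5668 in si-CTRL and at 5663, 5541 and 4960 in si-SAM68. These ranges nearly coincided, and the log2 difference was 0.03 (SE 0.088, 95% interval -0.17 to 0.23, adjusted p = 0.864). The gene PSMB8-AS1 overlaps the TAP1 locus with a mean of 371 normalized reads, and here too counting by strand is not given. The locus joining TAP2 with HLA-DOB (hg19 chr6:32780549-32806600) was at 6534, 5759 and 6321 in si-CTRL and at 5237, 5314 and 4937 in si-SAM68. It was the only member without overlap between the groups, a pattern that 33.9% of all loci tested had. Its log2 difference of -0.26 (SE 0.078, 95% interval -0.44 to -0.09) had an unadjusted p of 0.00713 and missed the threshold after adjustment (adjusted p = 0.0591). The adjusted p was 0.0265 with DESeq2, 0.0678 with edgeR, 0.0819 with the replicate number as a block, and 0.0459 without si-CTRL replicate 1. TAP1 had 0.741, 0.926 and 0.897 times the normalized reads of the TAP2 locus in si-CTRL and 1.08, 1.04 and 1.00 times in si-SAM68, again without overlap and without a test.

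Tapasin, which bridges the transporter and the heavy chain, was at 12892, 10008 and 9787 in si-CTRL and at 11118, 11023 and 9522 in si-SAM68 (TAPBP, hg19 chr6:33267474-33282164). Control 1 was the highest of the 6 libraries, and the others of both groups were mixed. The log2 difference was -0.04 (SE 0.114, 95% interval -0.29 to 0.22, adjusted p = 0.866). NLRC5, the transactivator, was at 666, 907 and 838 in si-CTRL and at 850, 772 and 738 in si-SAM68 (hg19 chr16:57023458-57117443). The silenced values lay inside the control range, with a log2 difference of -0.02 (SE 0.126, 95% interval -0.30 to 0.26, adjusted p = 0.935).

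**Figure D2:**
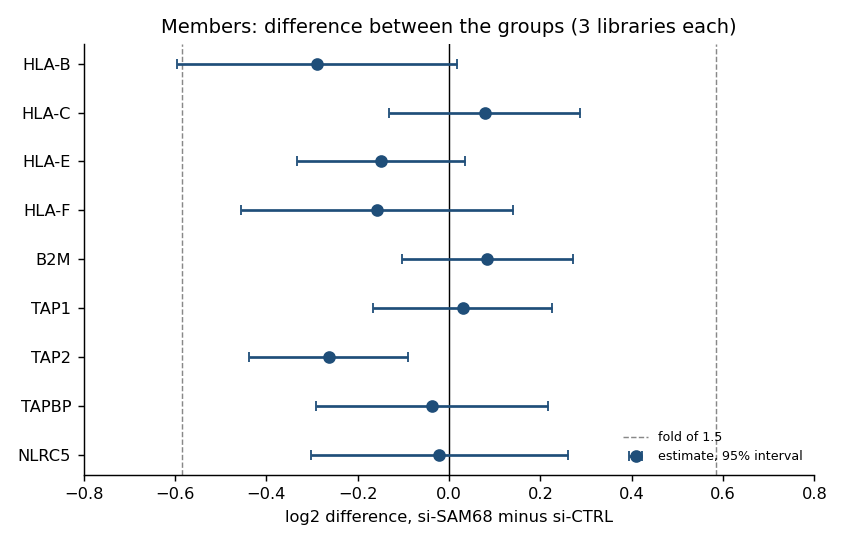
Log2 difference between si-SAM68 and si-CTRL (horizontal axis) for the 9 members, with the 95% interval of the limma fit over 3 libraries per group. Dashed lines mark a fold change of 1.5, and 8 of the 9 intervals lie between them, the exception being the interval of HLA-B, which reaches -0.60.

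These intervals rest on the spread between the libraries, which may be technical, and for the heavy chains on reads of the labelled loci alone. Within these limits they set how large a change could have been missed. For 8 of the 9 members a change of 1.5-fold in either direction lay outside the 95% interval, and for HLA-B only a fall of that size lay inside it. The standard errors of the members, between 0.078 and 0.137, had a median of 0.094, and the 8927 loci in the same range of mean counts had a median of 0.093. Of those loci 13% were called. The least covered value of a member was 487 reads.

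Per kilobase of the longest protein-coding transcript in the GENCODE basic set, B2M had 80979 normalized reads on average over the 6 libraries, HLA-C 12059, HLA-E 3389, TAPBP 2853, TAP1 1803, HLA-B 1600.1, the TAP2 locus 999.9, HLA-F 442 and NLRC5 117. The ranges over the 6 libraries of most neighbours in this order did not overlap. Those of HLA-E (3011 to 3812) and TAPBP (2533 to 3430) did, and so did those of TAP1 (1637 to 1915) and HLA-B (1297 to 2110). The order holds for reads assigned to these loci, and for the heavy chains it leaves out the reads described next.

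The hg19 build holds 7 alternative versions of the MHC region as separate contigs, and FAST DB has loci on them. The table lists 208 such loci, of which 33 had reads and 15 were tested. All 15 lack a gene symbol in the table, so that the genes they represent are not named here. They were examined after their values had been seen. Together the 33 loci held between 54477 and 66194 normalized reads per library, which was 1.89 to 1.99 times the sum of HLA-B, HLA-C, HLA-E and HLA-F. The control mean was 59823 ± 5651 and the mean of the silenced libraries 58960 ± 4122 (SD, 3 libraries each; two-sided exact permutation test, p = 0.9, where 3 against 3 libraries cannot go below 0.1). The values given above for the heavy chains therefore count only reads placed on the labelled loci.

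The most abundant of these loci had counts close to those of HLA-C. This locus on the dbb contig (1203687 to 1207029) had 15262, 16603 and 21014 normalized reads in si-CTRL and 19615, 19845 and 17493 in si-SAM68, with a log2 difference of 0.12 (adjusted p = 0.550). Of the 9 members, HLA-C had the profile over the 6 libraries closest to it, with a root mean square difference of 0.057 in centred log2 values. A locus on the cox contig (2834340 to 2837623) had 10835, 8173 and 9946 in si-CTRL and 7948, 7598 and 7003 in si-SAM68. Here the groups did not overlap, a pattern that 1 of the 15 loci had, beside 33.9% of all loci tested. The log2 difference was -0.35 (95% interval -0.59 to -0.12, unadjusted p = 0.00794, adjusted p = 0.0628), and the closest member was HLA-B (0.064). A locus on the mann contig (2668715 to 2671390) had 4449, 2858 and 3602 in si-CTRL and 3005, 3047 and 2549 in si-SAM68, with a log2 difference of -0.32 (adjusted p = 0.187), and HLA-B was again the closest (0.038). None of the 15 loci passed the test with limma or edgeR, 1 had an unadjusted p under 0.05, and DESeq2 called 1, the cox locus (adjusted p = 0.0152). A like profile is a description over 6 libraries and does not identify a locus.

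**Figure D3:**
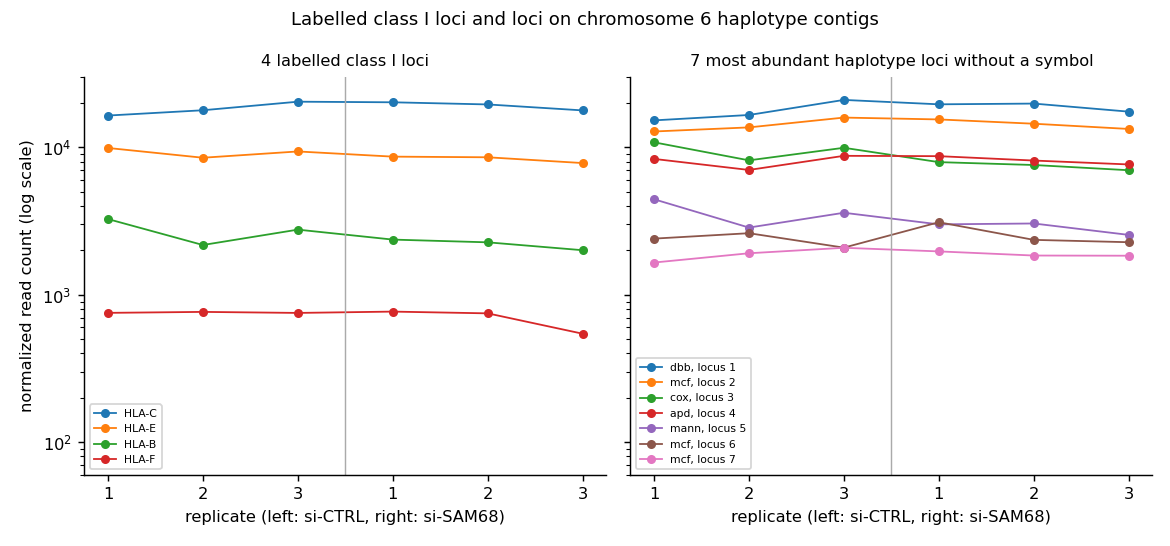
Normalized read counts (log scale) in each library for the 4 labelled heavy chain loci (left) and the 7 most abundant loci without a symbol on chromosome 6 haplotype contigs (right), with si-CTRL to the left and si-SAM68 to the right of the grey line and lines joining the values of 1 locus. The haplotype loci reach the level of HLA-C, and the cox and mann loci (3 and 5) have their highest value in si-CTRL replicate 1, as HLA-B has.

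Sequence shared between the members was small in the reference transcripts. Of the 100-base windows of the HLA-B and HLA-F transcripts, 0 occurred in a transcript of another gene. It was 4 of 1455 windows for HLA-C and 15 of 2502 for HLA-E. For TAP2 the count was 1965 of 5585, all in AL669918.1, another gene model of the GENCODE annotation. These are windows of the reference alleles, and the alleles of the cell line were not examined.

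Promoters of the classical heavy chains are shown with those of B2M and TAP2 as examples of the regulatory letters of the members. RefSeq promoter windows, from 250 bases before to 50 after the start (GRCh38.p14), were found for 7 of the 9 members, and there was no entry for HLA-E and NLRC5. Capitals mark GGGGATTC (a κB-type site), TTTCNNTTC (an interferon response type), TGACG (an X2 type) and CCAAT, searched on both strands. The stretches run from 6 bases before the first to 6 bases after the last match upstream of the start.
HLA-B, chr6:31357225-31357362, minus strand: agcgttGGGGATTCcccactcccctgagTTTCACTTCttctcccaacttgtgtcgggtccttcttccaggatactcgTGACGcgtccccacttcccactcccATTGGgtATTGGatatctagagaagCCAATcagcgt
HLA-C, chr6:31272138-31272290, minus strand: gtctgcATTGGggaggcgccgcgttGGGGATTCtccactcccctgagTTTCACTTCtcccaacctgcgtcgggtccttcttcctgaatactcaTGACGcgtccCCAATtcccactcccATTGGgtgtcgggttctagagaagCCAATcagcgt
B2M, chr15:44711436-44711478, plus strand: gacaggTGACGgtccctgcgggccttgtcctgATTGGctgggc
TAP2, chr6:32838764-32838808, minus strand: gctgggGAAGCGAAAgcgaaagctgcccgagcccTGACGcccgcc

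HLA-B and HLA-C each carried all 4 motifs, with 3 matches to CCAAT in HLA-B and 4 in HLA-C. Of all 35116 promoter windows 4 carried all 4 motifs, counting those of HLA-B and HLA-C. B2M matched TGACG and CCAAT, and TAP2 matched TTTCNNTTC and TGACG. HLA-F and 1 of the 2 TAP1 windows matched only CCAAT, and TAPBP and the other TAP1 window matched none. This says only that these exact letters are not in these windows. Variants of TTTCNNTTC with 1 more T (A on the other strand) were not searched. They occur as tttctctttc in HLA-F, tttcgatttc in the TAP1 window with CCAAT, gaaagtgaaa in TAPBP and gaaactgaaa in B2M. A missing match is therefore no evidence that a window lacks an interferon response or κB element. Over all promoter windows, GGGGATTC occurred in 0.888%, TTTCNNTTC in 7.66%, TGACG in 24.6% and CCAAT in 34.6%. A match is a description of letters and not evidence of binding.

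Around the members, 74 further loci of the class I pathway and its regulators were tested, from 8 lists. Of these 8 were called (10.8%, beside 10.7% of all loci), 5 higher and 3 lower, a share close to that of the whole table, and edgeR called 9 and DESeq2 12. The members and these lists were chosen with earlier results of these data known.

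**Figure D4:**
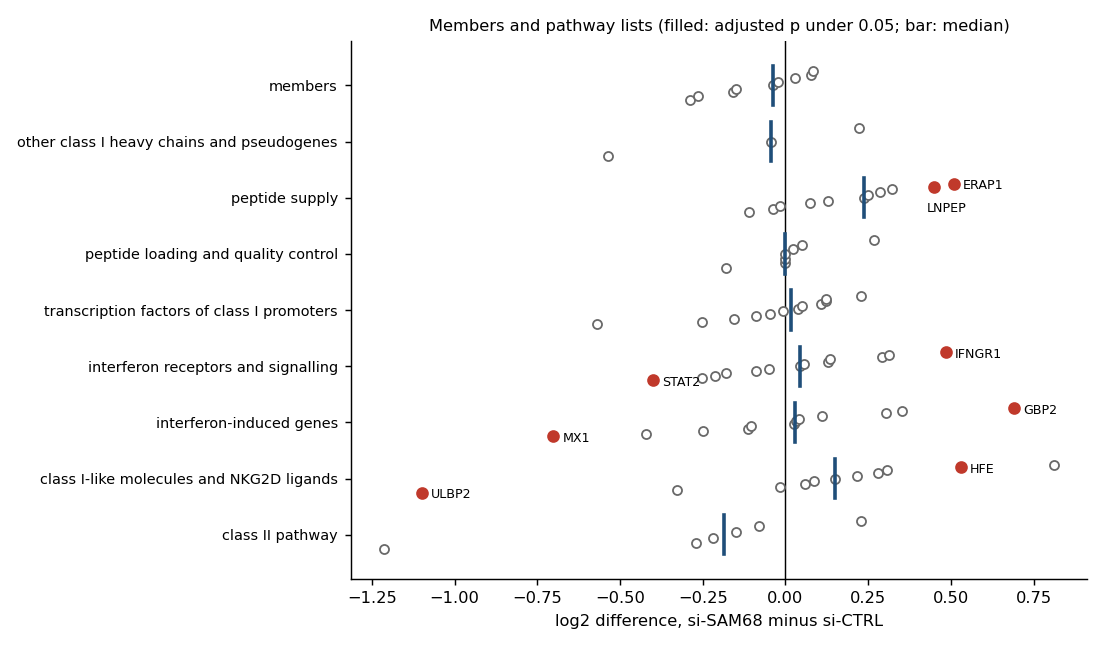
Log2 difference between si-SAM68 and si-CTRL (horizontal axis) of each tested locus in the members and in 8 pathway lists, with filled points for an adjusted p under 0.05 and a bar at the median of each list. The members lie between -0.29 and 0.08 with no filled point, and the 8 filled points are ERAP1, LNPEP, IFNGR1, GBP2 and HFE to the right and STAT2, MX1 and ULBP2 to the left.

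Peptide supply held the aminopeptidases that rose. Of 11 loci tested 2 were called, both higher (4.47% of all loci were called higher), and the median log2 difference was 0.24. ERAP1, which trims peptides to length in the endoplasmic reticulum, was at 4366, 3943 and 4505 in si-CTRL and at 5788, 6519 and 5924 in si-SAM68. It was 1.42-fold higher (95% interval 1.25 to 1.62, adjusted p = 0.00611), and every silenced library lay above every control. LNPEP, an aminopeptidase of endosomes linked to cross-presentation, was at 3456, 3805 and 3830 in si-CTRL and at 4295, 5870 and 5090 in si-SAM68, 1.37-fold higher (adjusted p = 0.0322). The call for LNPEP was lost without si-CTRL replicate 2 or 3 or si-SAM68 replicate 2 or 3, with adjusted p between 0.0530 and 0.125.

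The immunoproteasome genes PSMB8 and PSMB9 sit between and beside the transporter genes. The PSMB9 locus lies 140 bases past the higher coordinate of the TAP1 locus. TAP1 is on the minus strand, so that this is the side of its start. PSMB9 was at 669, 1110.0 and 939 in si-CTRL and at 1198, 1082 and 1050.0 in si-SAM68, and its log2 difference was 0.32 (95% interval -0.04 to 0.69, adjusted p = 0.238). Without si-CTRL replicate 1 it was 0.12, and without si-CTRL replicate 2 it was 0.48. PSMB8 was at 2482, 3254 and 3392 in si-CTRL and at 3404, 3262 and 3226 in si-SAM68, with a log2 difference of 0.13 (95% interval -0.13 to 0.38, adjusted p = 0.508). For both, as for NLRC5 and TAP1, the lowest of the 6 values was in si-CTRL replicate 1. Groups overlapped for both genes.

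Peptide loading and quality control, with calreticulin, calnexin and ERp57, had 0 of 7 loci called by limma, edgeR or DESeq2, 1 with an unadjusted p under 0.05 and a median log2 difference of 0.00. The transcription factors of class I promoters had 0 of 12 called by limma and 3 with an unadjusted p under 0.05, with a median of 0.02. edgeR and DESeq2 each called 1 of them, RELA, a subunit of NF-κB, with adjusted p of 0.0490 and 0.00223. RELA was at 8788, 5487 and 5382 in si-CTRL and at 4469, 4368 and 4065 in si-SAM68, with control 1 far above the rest. The groups did not overlap, as for 33.9% of all loci tested. Its log2 difference was -0.57 (adjusted p = 0.0538 with limma, 0.0375 with the replicate number as a block), and without si-CTRL replicate 1 it was -0.34 (adjusted p = 0.00654). Among the other class I heavy chains and pseudogenes, 6 genes were listed, 3 loci were tested and 0 were called by any of the 3 tools, with 1 at an unadjusted p under 0.05. Of 12 class II genes listed, 6 had a tested locus besides the one joined with TAP2, the most abundant being HLA-DPB1 with a mean of 802 normalized reads and HLA-DPA1 with 388, named after their values were seen, and 0 were called by any of the 3 tools, with 0 at an unadjusted p under 0.05.

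Interferon receptors and signalling had 2 of 13 loci called (15.4%, beside 10.7% of all loci), in opposite directions, with a median log2 difference of 0.04. IFNGR1, the ligand-binding chain of the interferon-γ receptor, was at 2308, 2582 and 2911 in si-CTRL and at 3637, 3707 and 3524 in si-SAM68, 1.40-fold higher (95% interval 1.21 to 1.62, adjusted p = 0.0125). The call was lost without any 1 of the silenced libraries, with adjusted p between 0.0521 and 0.0593, while the fold stayed close. STAT2, which carries the type I interferon signal to the nucleus, was at 789, 654 and 761 in si-CTRL and at 586, 524 and 555 in si-SAM68, 1.32-fold lower (adjusted p = 0.0421). The call for STAT2 was lost without si-CTRL replicate 3 or any silenced library, with adjusted p up to 0.160.

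Interferon-induced genes had 2 of 12 loci called (16.7%, beside 10.7% of all loci), again in opposite directions, with a median log2 difference of 0.03. MX1, an antiviral GTPase, was at 6403, 4580 and 6565 in si-CTRL and at 3135, 4017 and 3551 in si-SAM68, 1.63-fold lower (adjusted p = 0.0147). The call was lost without si-SAM68 replicate 1 (adjusted p = 0.0694) or replicate 3 (0.0778). The locus joining GBP2 with GBP7, both guanylate-binding proteins, was at 98.7, 134 and 115 in si-CTRL and at 194, 167 and 198 in si-SAM68, 1.61-fold higher (adjusted p = 0.0247). With the replicate number as a block its adjusted p was 0.0505, and it was lost without si-CTRL replicate 3 or any silenced library, with adjusted p up to 0.112.

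Class I-like molecules showed the largest fall of the 8 lists among called genes. Of 11 loci tested 2 were called (18.2%, beside 10.7% of all loci), and the median log2 difference was 0.15. ULBP2, a stress-induced ligand of the activating receptor NKG2D on natural killer cells, was at 1480, 1062 and 1179 in si-CTRL and at 564, 592 and 563 in si-SAM68. It was 2.14-fold lower (log2 difference -1.10, SE 0.124, 95% interval -1.37 to -0.82, adjusted p = 0.00101), and the silenced libraries were tightly grouped below every control. ULBP2 has close paralogs between which reads may have been split. HFE, a class I-like protein that binds the transferrin receptor and is known for iron homeostasis, was at 761, 713 and 814 in si-CTRL and at 1175, 1076 and 1055 in si-SAM68, 1.44-fold higher (95% interval 1.25 to 1.67, adjusted p = 0.00842). ULBP2, HFE and ERAP1 were called in each of the 18 alternatives run, and the other 5 genes were not.

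**Figure D5:**
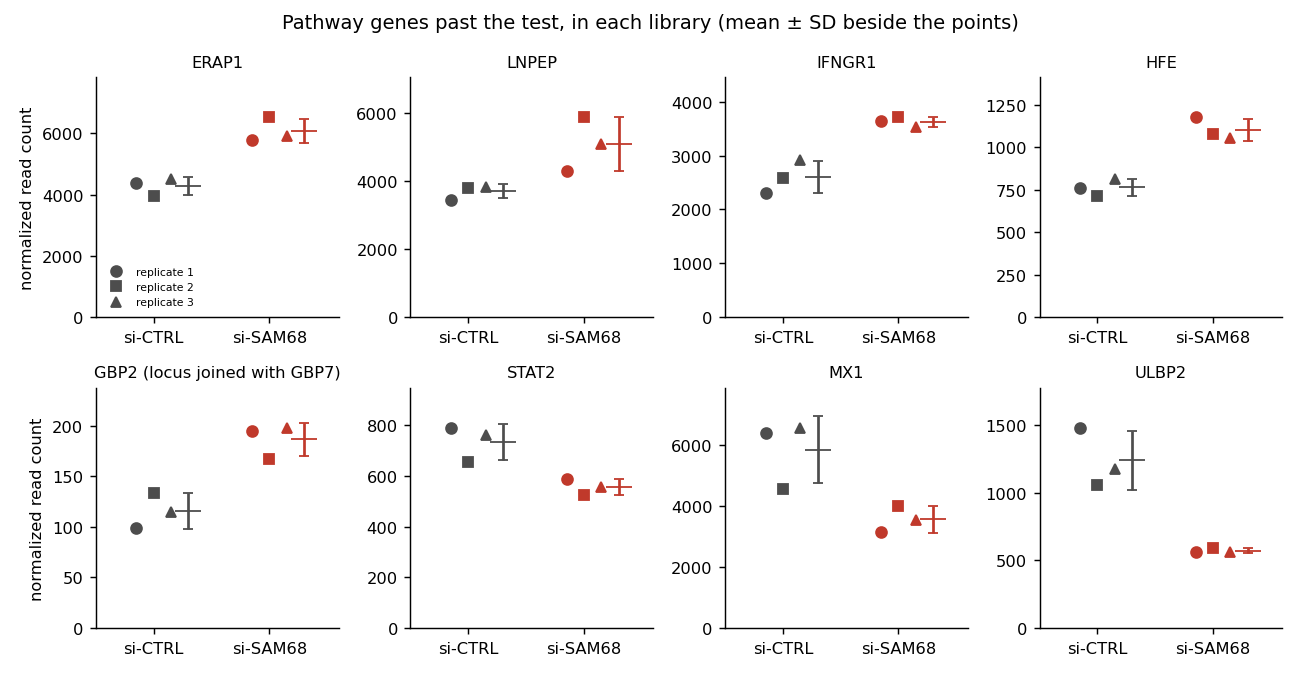
Normalized read counts (vertical axis, from 0) of the 8 called pathway loci in each library, with 1 point per library, the replicate number as its shape, and the mean ± SD of 3 libraries beside the points. Every silenced library lies above every control for ERAP1, LNPEP, IFNGR1, HFE and the GBP2 locus, and below for STAT2, MX1 and ULBP2.

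By profile over the 6 libraries, the loci nearest to HLA-B among 12927 loci with a symbol and a mean of at least 50 were UBALD1 (root mean square difference 0.025 in centred log2 values), CLCN2 (0.045) and ACOT11 (0.047). Nearest to TAP1 were PLPP5 (0.022), ZNF324B (0.027) and MFSD12 (0.033). Nearest to NLRC5 were IMPA2 (0.024), GFOD2 (0.025) and CUTA (0.030). None of these 9 loci belongs to the lists.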

How the data were processed

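The authors aligned single-end reads of 100 bases to hg19 and counted them on FAST DB loci. Their processing notes name STAR 2.4.0, FastQC, Picard, SAMtools and DESeq2. The deposited values are a signal, the reads per locus divided by a DESeq2 size factor. The step between the low values of a library returned whole reads (tolerance 0.001) for 100% of values, which were used for edgeR and DESeq2. The si-SAM68 replicate 1 column has a step of 1.01, too near 1 to tell reads from normalized values on its own.

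log2(normalized read count + 1) was fitted with limma 3.58.1 in R 4.3.3 (lmFit, eBayes with trend) for loci with a mean of at least 10, with Benjamini-Hochberg adjustment over all of them. edgeR 4.0.16 and DESeq2 1.42.0, other pseudocounts, filters and scalings, the replicate block and leaving out each library were alternatives. The programs were tested on simulated data.

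Deviations from the group means correlated at 0.105, 0.231 and 0.125 for libraries of the same number and at -0.125 to 0.007 otherwise. Such deviations cancel within a group, so that these correlations depend on one another. They do not establish a pairing, which the labels do not state, and the main fit had no block.

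Members and lists were chosen with earlier results of these data known. Named besides the members are called list genes (at most 4 per list and direction), PSMB8 and PSMB9, and the 3 nearest profiles to HLA-B, TAP1 and NLRC5. Precision is limited by 3 libraries per group.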

Additional observations from a re-analysis of the deposited data

How the results depend on the processing

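Of 18 alternatives, 6 left out a library. Members called (0) became 1 with DESeq2 and 0 to 1 when a library was left out, and 0 at the thresholds of the study in every alternative. Members with an unadjusted p under 0.05 (1) became 2 with DESeq2, with the replicate block and with edgeR with that block, and 1 to 3 with a library left out. Loci called (2017) became 899 without a trend in eBayes and 625 to 2839 with a library left out, the lowest without si-SAM68 replicate 3 and the highest without si-CTRL replicate 1. The other pathway loci called (8) became 4 and 3 to 14 in the same alternatives, with the extremes at the same libraries. Loci at the thresholds of the study (1445) became 2240 without a filter. The cause was not tested. The estimate for NLRC5 changed sign with quantile normalization (0.0058). With a library left out, estimates that changed sign ran from -0.15 to 0.0716 for NLRC5, -0.0314 to 0.0881 for TAP1, -0.110 to 0.0892 for TAPBP, -0.247 to 0.0019 for HLA-F and -0.0113 to 0.214 for PSMB8. HLA-B ran from -0.44 to -0.15, the TAP2 locus from -0.32 to -0.23, HLA-E from -0.21 to -0.10, HLA-C from 0.006 to 0.16, B2M from 0.03 to 0.14, PSMB9 from 0.12 to 0.48 and RELA, called in 9 of the 18 alternatives, from -0.69 to -0.34. The replicate number, as a block, ended the call for the GBP2 locus (adjusted p = 0.0505 with limma, 0.0547 with edgeR) and gave RELA a call with limma (0.0375). No other call among the members and the pathway loci changed with it. Without a trend LNPEP, IFNGR1, STAT2 and MX1 lost their call, and STAT2 also without a filter and with quantile normalization. The least covered member value rested on 487 reads, and precision is limited by 3 libraries per group.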

Other observations

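Some listed genes near the threshold were picked after their values had been seen. IFNAR1, a chain of the type I interferon receptor, had a log2 difference of 0.29 (adjusted p = 0.0539). PSME1, a subunit of the PA28 proteasome activator, had 0.29 (adjusted p = 0.0565), and ERAP2, the partner of ERAP1, had 0.25 (adjusted p = 0.0702). The class I pseudogene HLA-L had -0.54 (adjusted p = 0.0795). None of the 4 passed the test with limma, and for each the groups did not overlap, as for 33.9% of all loci tested. DESeq2 called IFNAR1 (adjusted p = 0.0180), PSME1 (0.0215) and ERAP2 (0.0353).

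A haplotype locus on the mann contig (2583423 to 2586767) had 195 normalized reads in si-CTRL replicate 1, whereas the remaining 5 libraries ran from 534 to 616. The same library had the highest HLA-B and TAPBP values and the lowest NLRC5 and PSMB9 values of the 6.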
